A study of Mus musculus with 8 samples.

Results

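The genes described here encode parts of the axoneme, the microtubule core of a motile cilium, and proteins that mark the cells which carry such cilia. They were chosen by gene symbol: the dynein heavy chains (Dnah), dynein intermediate chains (Dnai or Dnaic), tektins (Tekt), radial spoke proteins (Rsph), cilia and flagella associated proteins (Cfap) and dynein regulatory complex proteins (Drc), together with Foxj1, Tmem212, Cdhr3, Dynlrb2, Ccdc39, Ccdc40 and Vwa3a. This gave 118 array rows of 68 genes. The table holds 35557 rows, of which 23410 carry a gene symbol and were tested. A row is a transcript cluster, the joined signal of the probe sets of one gene or of one stretch of it, so the rows of a long gene such as Dnah3, with 33 of the 118 rows, are not independent measurements. Counts are therefore also given per gene, each gene by its brightest row on average.

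Motile cilia beat because outer and inner dynein arms, fixed along the microtubule doublets, slide neighbouring doublets against each other. Radial spokes, the central pair and the nexin-dynein regulatory complex turn sliding into a regular beat, and tektins lie inside the doublet wall. The forkhead factor Foxj1 switches on this gene program in multiciliated cells. In the nose such cells line the respiratory epithelium, whereas the cilia of olfactory sensory neurons (OSNs) carry odorant receptors and are not known for a beat of this kind.

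Olfactory mucosa was dissected from mice at postnatal day 1 (P1) on a mixed 129 x C57BL/6J background, and total RNA of each of 8 samples was hybridised to 1 Affymetrix mouse gene array. The knockout group consisted of 4 samples of genotype 123Cre:Emx2(fl/fl), in which the 123Cre transgene is active from the immature OSN stage on and in a fraction of the OSNs, so that both floxed alleles of Emx2, a homeodomain transcription factor gene, can be deleted there. The 4 littermate controls were controls 1 and 4, with Cre and a single floxed allele (123Cre:Emx2(fl/+)), and controls 2 and 3, with both alleles floxed and no Cre (Emx2(fl/fl)). Each litter that gave knockouts also gave controls, per the study's methods. The labels do not say how much respiratory epithelium the dissection held, and the study describes Cre as neuronal. The comparison addresses how the loss of Emx2 in OSNs bears on mRNA abundance in this tissue. Values are log2 signals, differences are knockout minus control, and p-values measure the spread between samples that the labels do not tie to litters.

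Emx2 mRNA was at 9.80, 9.86, 10.01 and 9.93 in knockouts 1 to 4 and at 10.80, 10.86, 10.997 and 10.72 in controls 1 to 4. It fell by 0.94 (SE 0.082; limma adjusted p = 0.00140), with no overlap between the groups. Omp, which marks mature OSNs, lay between 12.80 and 13.07 in all arrays. Knockout 2 was an unusual array. It correlated with the remaining arrays at 0.979 on average, where every other array reached 0.988 to 0.991. It also had the highest value, 0.73, on the first principal component of all rows other than the axoneme genes, which held 53.2% of their variance, followed by control 2 at 0.32. For part of the results that rest on knockout 2, the value without it is also given. The differences of other genes, such as Cfap69, Cfap43, Cfap44, Rsph4a and Odf3b, include knockout 2 and are not given without it.

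Promoters of 5 axoneme genes with a sequence feature of cilia promoters are shown first, since these genes recur among the results. RFX factors bind the X-box, a pair of half-sites in opposite directions, and work beside Foxj1 in ciliated cells. The half-site letters searched were GTTGCC, read as GGCAAC on the other strand, in the 250 bases upstream of the transcription start (RefSeq, build GRCm38.p6, both strands searched). Of the 68 genes, 58 had such a window, some with more than 1 start, 65 windows in all. The half-site was present in 21 of the 65 windows (32.3%), against 10.4% of all 32851 windows in the genome and 10.5% of those of protein-coding genes. Windows of 1 gene can overlap and share a half-site, as for Tekt2 and Cfap74. Counted per gene, the half-site was present in 19 of 58, against 3195 of 27025 over all windows. An opposed pair with a gap of at most 4 bases was present in 2 of the 65 windows (3.08%) and in 0.152% of all windows. The forkhead letters GTAAACA, or TGTTTAC on the other strand, were present in 4 windows (6.15%), those of Cfap20, Cfap43, Dnah17 and Tekt3, and in 3.17% of all windows. These matches describe letters, not binding. Only exact letters were counted, so a half-site with a changed base was missed, such as agcaac in Dynlrb2 or gttgct in Dnaic2 beside the marked one. The counts of pairs hold for exact letters only. In the 5 sequences, written 5′ to 3′ along the gene's strand and ending at the base before the start, capitals mark half-sites. Dynlrb2 (chr8:116504765-116505014, plus strand), Dnaic2 (chr11:114727169-114727418, plus strand) and Cfap161 (chr7:83794840-83795089, minus strand) are shown as genes whose mRNA varied with Foxj1 and Tmem212 over the arrays. Cfap298 (chr16:90934850-90935099, minus strand) and Cfap20dc (chr14:8666291-8666540, minus strand) are shown as the windows with the opposed pair in exact letters.
Dynlrb2: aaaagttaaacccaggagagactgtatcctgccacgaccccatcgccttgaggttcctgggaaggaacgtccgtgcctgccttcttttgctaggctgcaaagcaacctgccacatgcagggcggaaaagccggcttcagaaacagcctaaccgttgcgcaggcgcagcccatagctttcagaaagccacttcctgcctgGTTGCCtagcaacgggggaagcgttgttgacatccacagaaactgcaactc
Dnaic2: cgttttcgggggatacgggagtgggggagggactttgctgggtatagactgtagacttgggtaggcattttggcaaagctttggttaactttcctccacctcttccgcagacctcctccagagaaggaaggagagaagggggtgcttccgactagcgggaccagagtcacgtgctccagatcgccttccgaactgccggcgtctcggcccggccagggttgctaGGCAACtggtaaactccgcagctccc
Cfap161: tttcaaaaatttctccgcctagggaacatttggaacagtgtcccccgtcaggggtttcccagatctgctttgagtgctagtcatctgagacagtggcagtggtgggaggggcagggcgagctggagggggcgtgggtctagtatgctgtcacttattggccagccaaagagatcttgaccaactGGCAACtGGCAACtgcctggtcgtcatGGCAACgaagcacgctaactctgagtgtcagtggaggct
Cfap298: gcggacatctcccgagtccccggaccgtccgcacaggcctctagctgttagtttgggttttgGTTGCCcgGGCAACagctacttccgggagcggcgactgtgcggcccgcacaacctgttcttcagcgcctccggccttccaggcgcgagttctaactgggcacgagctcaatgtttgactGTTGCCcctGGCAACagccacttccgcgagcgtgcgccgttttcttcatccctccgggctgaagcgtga
Cfap20dc: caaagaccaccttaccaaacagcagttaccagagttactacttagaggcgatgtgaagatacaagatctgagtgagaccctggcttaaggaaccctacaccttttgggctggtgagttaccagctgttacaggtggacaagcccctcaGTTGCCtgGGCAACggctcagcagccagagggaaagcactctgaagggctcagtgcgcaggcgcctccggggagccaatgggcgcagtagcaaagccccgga
The half-site began at position -51 from the start in Dynlrb2 and at -26 in Dnaic2. Cfap161 had 3 half-sites, all in the same direction. Cfap298 held the opposed pair at 2 places and Cfap20dc at 1.

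Both marker genes of multiciliated cells stood higher on average in the knockout, and neither passed the test. Foxj1 was at 10.17, 10.32, 9.997 and 10.01 in controls 1 to 4 and at 10.54, 10.73, 9.90 and 10.22 in knockouts 1 to 4. Knockouts 1 and 2 were above every control and knockout 3 was below every control. The difference was 0.22 (SE 0.173; 95% interval -0.17 to 0.61; limma adjusted p = 0.981; exact two-sided permutation p = 0.343), and 0.09 without knockout 2. Tmem212, a membrane protein of ciliated cells, was at 10.94, 11.06, 10.72 and 10.91 in the controls and at 11.36, 11.60, 10.83 and 11.26 in the knockouts. Knockouts 1, 2 and 4 exceeded every control, and knockout 3 lay among the controls. The difference was 0.36 (SE 0.155; 95% interval 0.00 to 0.71; limma adjusted p = 0.818; exact two-sided permutation p = 0.114), and 0.24 without knockout 2. The smallest p that 4 against 4 samples allow in the permutation test is 0.0286. In bulk tissue, fewer or more ciliated cells and less or more RNA per cell cannot be told apart.

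Over all 118 rows, none passed limma's adjusted threshold of 0.05 in either direction, against 84 of the 23410 tested rows (0.359%; higher in the knockout, 0.00854%). By the methods' t-test none passed either, against 28 of the tested rows (0.12%; higher in the knockout, 0%). With shares this small, a count of 0 among 118 rows is near the background. At an unadjusted p under 0.05, 45 of the 118 rows were higher in the knockout, or 17 of 68 with 1 row per gene (25%), against 3.04% of all tested rows. In the other direction 1 row, that of Cfap300, did so, against 3.06% of all rows. By the methods' t-test 22 rows were higher at an unadjusted p under 0.05, against 3.53% of all tested rows, and 1 was lower. The limma count of 46 in both directions depended on single arrays: it was 9 without control 3, 10 without knockout 1, 11 without knockout 4, 22 without control 2 and 26 without control 1, and 65 without knockout 2. The share of all tested rows at that p was 6.1% with all arrays and, in the same order, 3.48%, 3.61%, 5.87%, 5.56%, 4.57% and 9.99%. The knockout mean was above the control mean in 108 of 118 rows and in 58 of 68 genes (85.3%), compared with 51.6% of all tested rows. The median difference was 0.22 over the rows and 0.17 over the genes, beside 0.004 over all tested rows. The count did not rest on dim rows: 6 of the 68 genes belonged to the dimmest 30% of tested rows, and of the other 62 genes 52 were above 0 (83.9%, median 0.17), against 43.3% of the tested rows that were not among the dimmest.

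The differences spanned a narrow range. The largest difference among the 68 was 0.48 (Dnah12) and the lowest was -0.34 (Cfap300). The mean over the 68 genes was 9.29, 9.27, 9.22 and 9.35 in controls 1 to 4 and 9.51, 9.39, 9.34 and 9.54 in knockouts 1 to 4. Knockouts 1, 2 and 4 were above all controls, and knockout 3 was below control 4. In 4 rows all knockouts exceeded all controls (3.39%, against 1.98% of all tested rows), and these belonged to Vwa3a, Cfap65, Dnah17 and Dnah3. In 1 row, that of Cfap300, all knockouts lay below all controls, against 2.54% of all rows. These shares are close to the background. The count of 4 became 8 without control 2, 27 without control 4, 26 without knockout 2 and 30 without knockout 3. With those arrays left out the shares of the 118 rows were 6.78%, 22.9%, 22.0% and 25.4%, and those of all tested rows 3.58%, 4.75%, 4.62% and 4.59%.

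**Figure D1:**
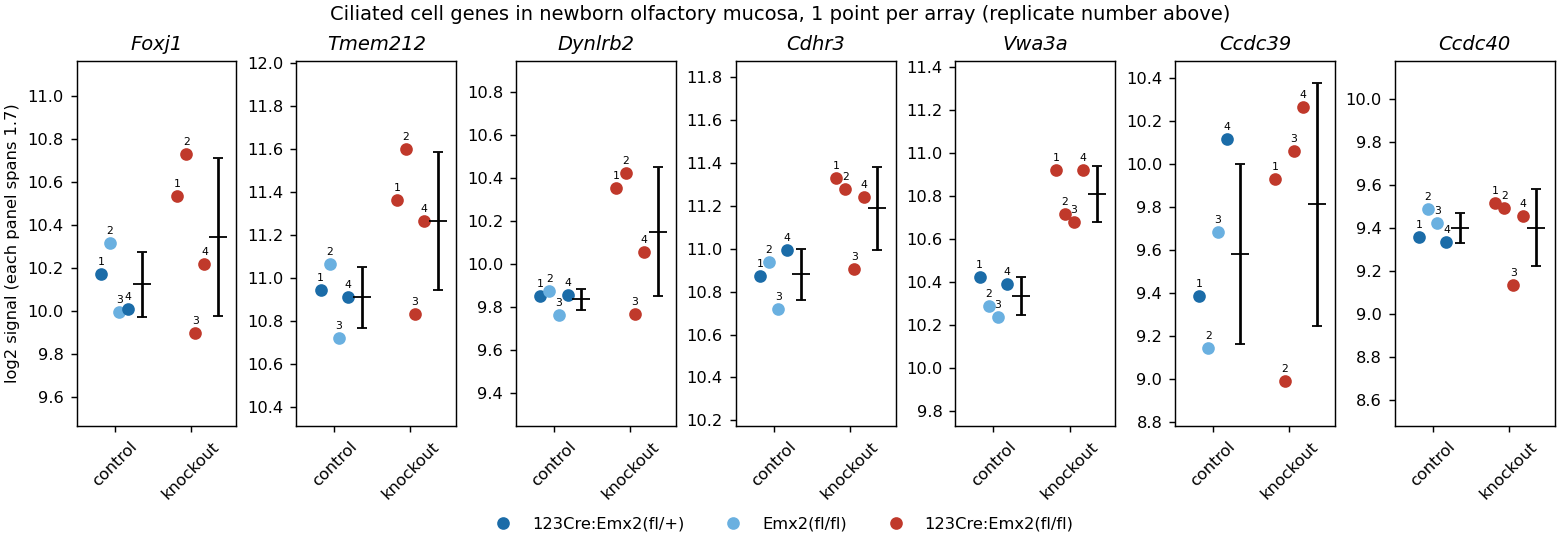
Log2 signal of the 7 genes given by name in each of the 8 arrays (points, numbered by replicate and coloured by genotype), with the mean and SD of each group (black bars); every panel spans the same range of log2 signal on its own axis. The 4 knockouts lie above all controls for Vwa3a, whereas for Foxj1, Tmem212 and Dynlrb2 knockout 3 lies among or below the controls, and for Ccdc39 knockout 2 is the lowest array.

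Vwa3a, which encodes a protein with von Willebrand factor A domains, had the lowest p of the 118 rows. It was at 10.42, 10.29, 10.24 and 10.39 in controls 1 to 4 and at 10.92, 10.71, 10.68 and 10.92 in knockouts 1 to 4. All knockouts exceeded all controls, and the lowest knockout stood farther above the highest control than either group's SD. The difference was 0.47 (SE 0.085; 95% interval 0.28 to 0.67), a signal 38.9% above that of the controls, and limma's adjusted p was 0.0871. It was 0.50 without knockout 2, 0.40 against 123Cre:Emx2(fl/+) alone and 0.55 against Emx2(fl/fl) alone. Its adjusted p ran from 0.0157 to 0.725 over the alternative settings, and it passed the threshold in 3 of them: with array weights, with arrays centred on mature OSN genes and with the first principal component as a term.

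Of the other genes given by name, Cdhr3, a cadherin-related protein of the ciliated cell surface, was at 10.87, 10.94, 10.72 and 10.99 in the controls and at 11.33, 11.28, 10.90 and 11.24 in the knockouts. Knockouts 1, 2 and 4 exceeded every control and knockout 3 did not (difference 0.31, SE 0.108; limma adjusted p = 0.713). Dynlrb2, a dynein light chain of the roadblock family, was at 9.85, 9.88, 9.77 and 9.86 in the controls and at 10.36, 10.43, 9.77 and 10.06 in the knockouts. Here too knockout 3 was level with the lowest control (difference 0.31, SE 0.137; limma adjusted p = 0.818; 0.22 without knockout 2). Ccdc39 and Ccdc40 together form the ruler that sets the spacing of dynein arms and spokes along the doublet, and their mRNAs are given side by side. Ccdc39 was at 9.38, 9.14, 9.68 and 10.12 in the controls and at 9.93, 8.99, 10.06 and 10.27 in the knockouts, with knockout 2 the lowest of all arrays. Its difference of 0.23 had a 95% interval of -0.44 to 0.90 and was 0.50 without knockout 2. Ccdc40 was at 9.36, 9.49, 9.43 and 9.33 in the controls and at 9.52, 9.49, 9.14 and 9.46 in the knockouts, a difference of -0.00 with a 95% interval of -0.22 to 0.22. Knockout 3 was the lowest array.

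Dynein heavy chains are the motors themselves. With 1 row per gene, 13 of 15 stood above 0, with a median of 0.24, and 4 of 15 had an unadjusted p under 0.05 (Dnah7a, Dnah3, Dnah9 and Dnah10). Of all tested rows 51.6% stood above 0 and 3.04% were higher at that p. Dnah12, an inner arm chain, had the largest difference, 0.48, and also one of the widest intervals, -0.10 to 1.07. It was at 9.10, 9.27, 9.37 and 9.73 in controls 1 to 4 and at 9.97, 9.05, 10.18 and 10.22 in knockouts 1 to 4. Knockout 2 was below every control and the other knockouts were above every control, so that the difference was 0.75 without knockout 2 (limma adjusted p = 0.886 with it and 0.0884 without it). Dnah7a, another inner arm chain, was at 7.33, 7.04, 7.30 and 7.42 in the controls and at 7.50, 7.38, 7.78 and 8.07 in the knockouts. Only knockout 2 lay within the control range (difference 0.41, SE 0.154; limma adjusted p = 0.764, and 0.0403 with the first principal component as a term). The mouse genome holds the near copies Dnah7a, Dnah7b and Dnah7c, whose probes may share signal, and Dnah7b and Dnah7c differed by 0.20 and 0.17. Dnah1, also of the inner arms, was at 9.14, 9.35, 8.59 and 9.35 in the controls and at 9.58, 9.75, 9.26 and 9.38 in the knockouts, where control 3 was the lowest array (difference 0.38, SE 0.181; limma adjusted p = 0.836).

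Dnah3, with 33 rows along 1 gene, stood above 0 in every row, from 0.11 to 0.41 with a median of 0.31. Of these 33 rows, 22 were higher at an unadjusted p under 0.05, against 3.04% of all tested rows. These rows read the RNA of 1 gene in the same samples, so their number does not reduce the spread between samples. Its brightest row was at 10.99, 10.87, 10.52 and 11.12 in the controls and at 11.36, 11.14, 11.04 and 11.31 in the knockouts. Knockout 3 was below control 4 and control 3 was the lowest array. The difference was 0.33 (SE 0.135; limma adjusted p = 0.784), but 0.15 against 123Cre:Emx2(fl/+) and 0.51 against Emx2(fl/fl). Without the Dnah3 rows, 23 of the 85 other rows were higher at an unadjusted p under 0.05, and 75 were above 0 (median 0.19). The shares of all tested rows were 3.04% and 51.6%.

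Among heavy chains of the outer arms, Dnah9 differed by 0.32 and Dnah5 by 0.27, whereas Dnah11 differed by -0.00 with an interval of -0.37 to 0.36. Dnah8 and Dnah17, known from the sperm tail, differed by -0.09 and 0.06, and the Dnah17 row belonged to the dimmest 30%. The outer arm intermediate chains Dnaic1 and Dnaic2 stood at 0.18 (interval -0.11 to 0.46) and 0.19 (-0.25 to 0.64). Dnaic2 was at 9.46, 9.71, 9.29 and 9.29 in controls 1 to 4 and at 9.80, 10.10, 9.15 and 9.47 in knockouts 1 to 4. Knockouts 1 and 2 lay above every control and knockout 3 below every control, as for Foxj1, and the difference was 0.04 without knockout 2.

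Of the nexin-dynein regulatory complex, Drc7, Drc1 and Drc3 differed by 0.26, 0.10 and 0.10, none with an unadjusted p under 0.05. Drc7 was at 9.36, 9.45, 9.10 and 9.13 in the controls and at 9.65, 9.997, 9.10 and 9.31 in the knockouts. The groups overlapped, and the difference was 0.10 without knockout 2. Of 5 radial spoke proteins 4 were above 0, with a median of 0.11. The spoke head proteins Rsph4a, Rsph1 and Rsph9 differed by 0.16, 0.11 and -0.07, and Rsph14 differed by 0.15. Rsph4a was lowest in knockout 2 (10.55, against 11.12 to 11.38 in the other knockouts and 10.63 to 11.17 in the controls). Rsph1 was highest there (10.43, against 10.07 to 10.30 and 10.10 to 10.24). All 5 tektins were above 0, from 0.12 to 0.26 with a median of 0.19. Tekt2 was at 9.15, 9.44, 9.38 and 9.16 in the controls and at 9.44, 9.71, 9.38 and 9.62 in the knockouts. Knockouts 1, 2 and 4 were above every control, knockout 1 narrowly (9.443 against 9.438 in control 2), and knockout 3 lay among the controls (difference 0.26, SE 0.105; limma adjusted p = 0.788). Tekt4 differed by 0.25 and Tekt5 by 0.19, with values of 0.05 and 0.08 without knockout 2, which was the highest array for both.

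The cilia and flagella associated proteins have mixed roles. Of 31 genes 25 were above 0, with a median of 0.14, and 7 had an unadjusted p under 0.05 as higher and 1 as lower. The shares of all tested rows were 51.6% above 0, 3.04% higher and 3.06% lower. Cfap65, needed for the sperm tail, was at 10.43, 10.57, 10.39 and 10.56 in controls 1 to 4 and at 11.02, 10.83, 10.62 and 10.82 in knockouts 1 to 4. All knockouts exceeded all controls, knockout 3 by the smallest margin (difference 0.34, SE 0.096; limma adjusted p = 0.477). The central pair proteins Cfap54, Cfap46 and Cfap221 differed by 0.36, 0.23 and 0.21, and Cfap74 of the same complex by 0.17. Cfap54 was at 10.94, 10.91, 10.98 and 11.16 in the controls and at 11.44, 11.03, 11.34 and 11.62 in the knockouts. Knockout 2 was the only knockout within the control range (difference 0.36, SE 0.125; limma adjusted p = 0.706). Its difference was 0.47 without knockout 2, and with array weights, which gave knockout 2 a weight of 0.170, it was 0.49 with an adjusted p of 0.0402.

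Cfap61, a protein at the base of a radial spoke, was at 10.46, 10.53, 10.33 and 10.36 in the controls and at 10.83, 10.98, 10.44 and 10.65 in the knockouts. Knockout 3 was the only knockout within the control range (difference 0.30, SE 0.117; limma adjusted p = 0.770). Cfap157 and Cfap161 differed by 0.32 and 0.23. Cfap161 lies inside the doublet wall, as do Cfap45, Cfap52 and Cfap53, which stood at 0.14, 0.16 and 0.14, and Cfap20, which stood at -0.07 (interval -0.22 to 0.08). Cfap43 and Cfap44, which tether an inner arm dynein to the doublet, stood at 0.21 and 0.14 with wide intervals of -0.36 to 0.77 and -0.30 to 0.59. Knockout 2 was the lowest array for both.

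Cfap300 went the other way. It encodes a factor for the assembly of dynein arms in the cytoplasm, and it was at 10.56, 10.43, 10.56 and 10.67 in controls 1 to 4 and at 10.34, 9.99, 10.16 and 10.35 in knockouts 1 to 4. Every knockout was below every control. The difference was -0.34 (SE 0.098; 95% interval -0.57 to -0.12; limma adjusted p = 0.479), and -0.27 without knockout 2. Cfap298, which acts in the same process and whose promoter holds the opposed half-sites shown above, differed by -0.01 (interval -0.21 to 0.18).

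**Figure D2:**
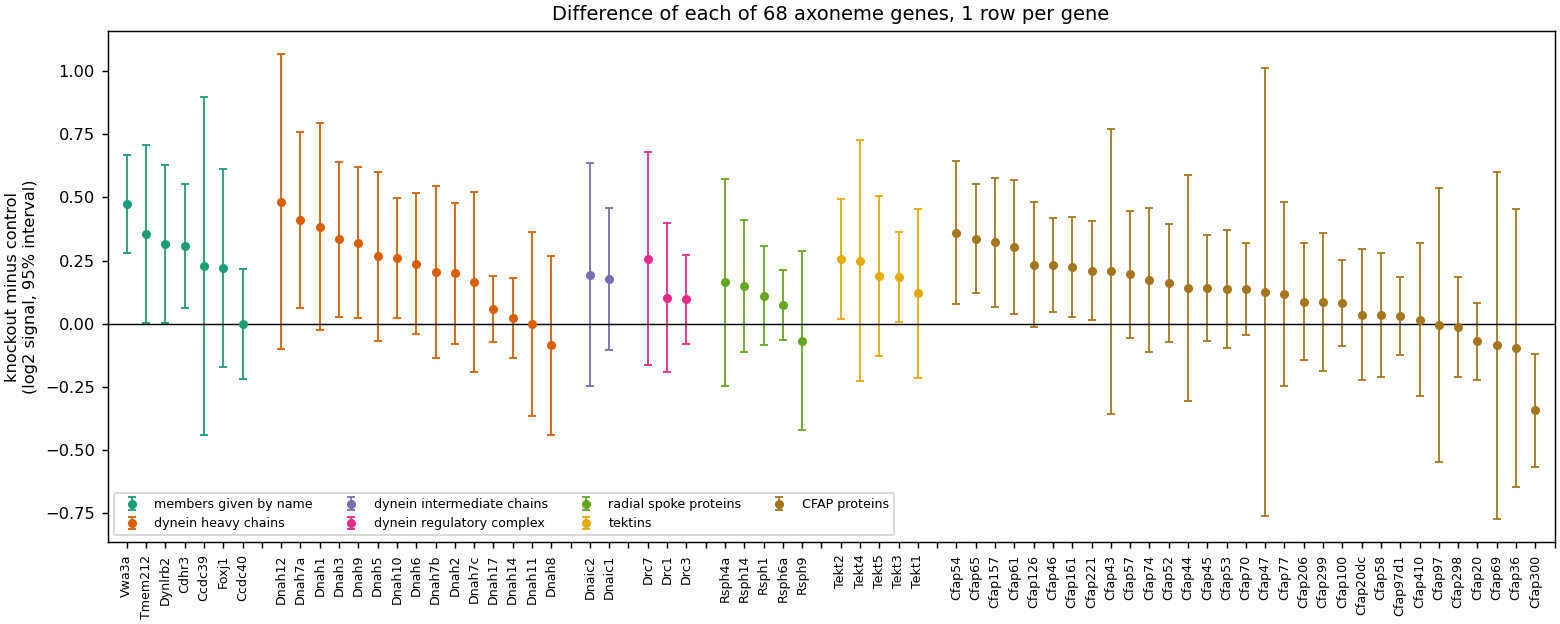
Knockout minus control in log2 signal (points) with the 95% interval of the limma fit (bars) for each of the 68 genes, 1 row per gene, coloured and ordered by family. Most points lie above 0 and most intervals include 0, and the largest difference with an interval clear of 0 is that of Vwa3a.

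The 68 genes did not vary as 1 block over the 8 arrays. As a description, the correlation of each gene with the mean of Foxj1 and Tmem212 was taken over the arrays, which share the tissue, the platform and knockout 2 as an extreme. It was above 0.8 for 23 of the 68 genes (33.8%), compared with 6.8% of all tested rows, between 0 and 0.8 for 25 and below 0 for 20. Foxj1 and Tmem212 are themselves part of that mean. The next closest were the inner arm chain Dnah2 (r = 0.977, n = 8 arrays), Cfap61 (r = 0.972), Cfap52, Drc7, Cfap126, Dnaic2, Dynlrb2 (r = 0.957) and Tekt1. At the other end stood Cfap97 (r = -0.737), Cfap69 (r = -0.706), Cfap36, Cfap20dc, Cfap47, Cfap300 and Dnah11. Each gene was read by its brightest row, and another row of the same gene could differ. The other row of Cfap61 had r = 0.130. Cfap74 had r = -0.165 in its brightest row and r = 0.744 in its other row. The division by r therefore depends in part on the row taken. The median correlation between pairs of the 68 genes on deviations from the group means was 0.26.

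The marker pair was itself highest in knockout 2, so the profiles of sets chosen by likeness to it over the same arrays follow in part from that choice and are described only. In the set with r above 0.8 the mean was 9.49, 9.59, 9.35 and 9.41 in controls 1 to 4 and 9.76, 9.93, 9.37 and 9.65 in knockouts 1 to 4. Knockout 2 was the highest array for 17 of its 23 genes. Its median difference was 0.22, and 0.13 without knockout 2. In the set with r below 0 the mean was 9.06, 8.90, 9.15 and 9.36 in the controls and 9.26, 8.73, 9.39 and 9.53 in the knockouts. Knockout 2 was the lowest array for 16 of its 20 genes, by a median of -0.60 against the mean of the other knockouts, and control 2 was the lowest of the control means. Its median difference was 0.13, with 15 of 20 above 0, and 0.25 without knockout 2, with 19 of 20 above 0.

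Both sets were also correlated with the first principal component of the rows that are not axoneme genes: r with it ran from 0.33 to 0.96 in the first set and from -0.99 to -0.47 in the set with r below 0. Its part in the differences between the groups was not tested beyond a fit with the component as a term, chosen after the data had been seen. In that fit the median over the 118 rows was 0.23, and Vwa3a (0.48, limma adjusted p = 0.0285) and Dnah7a (0.47, limma adjusted p = 0.0403) passed as higher and none as lower, against 0.252% and 0.918% of all tested rows. Cfap69, which is also known from the cilia of OSNs, shows the second pattern plainly. It was at 10.84, 10.45, 11.02 and 11.41 in controls 1 to 4 and at 10.87, 9.99, 11.21 and 11.31 in knockouts 1 to 4. Knockout 2 and control 2 were the lowest arrays, and the difference of -0.09 had an interval of -0.77 to 0.60. That difference includes knockout 2 and is small beside its interval, so its sign is not settled. Of the promoter windows of the first set 8 of 24 (33.3%) held an X-box half-site, and of those of the set with r below 0, 9 of 18 (50.0%). Counted per gene these were 8 of 20 and 8 of 17. The genes of the latter count include the near copies Dnah7a, Dnah7b and Dnah7c, so they are not all independent.

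**Figure D3:**
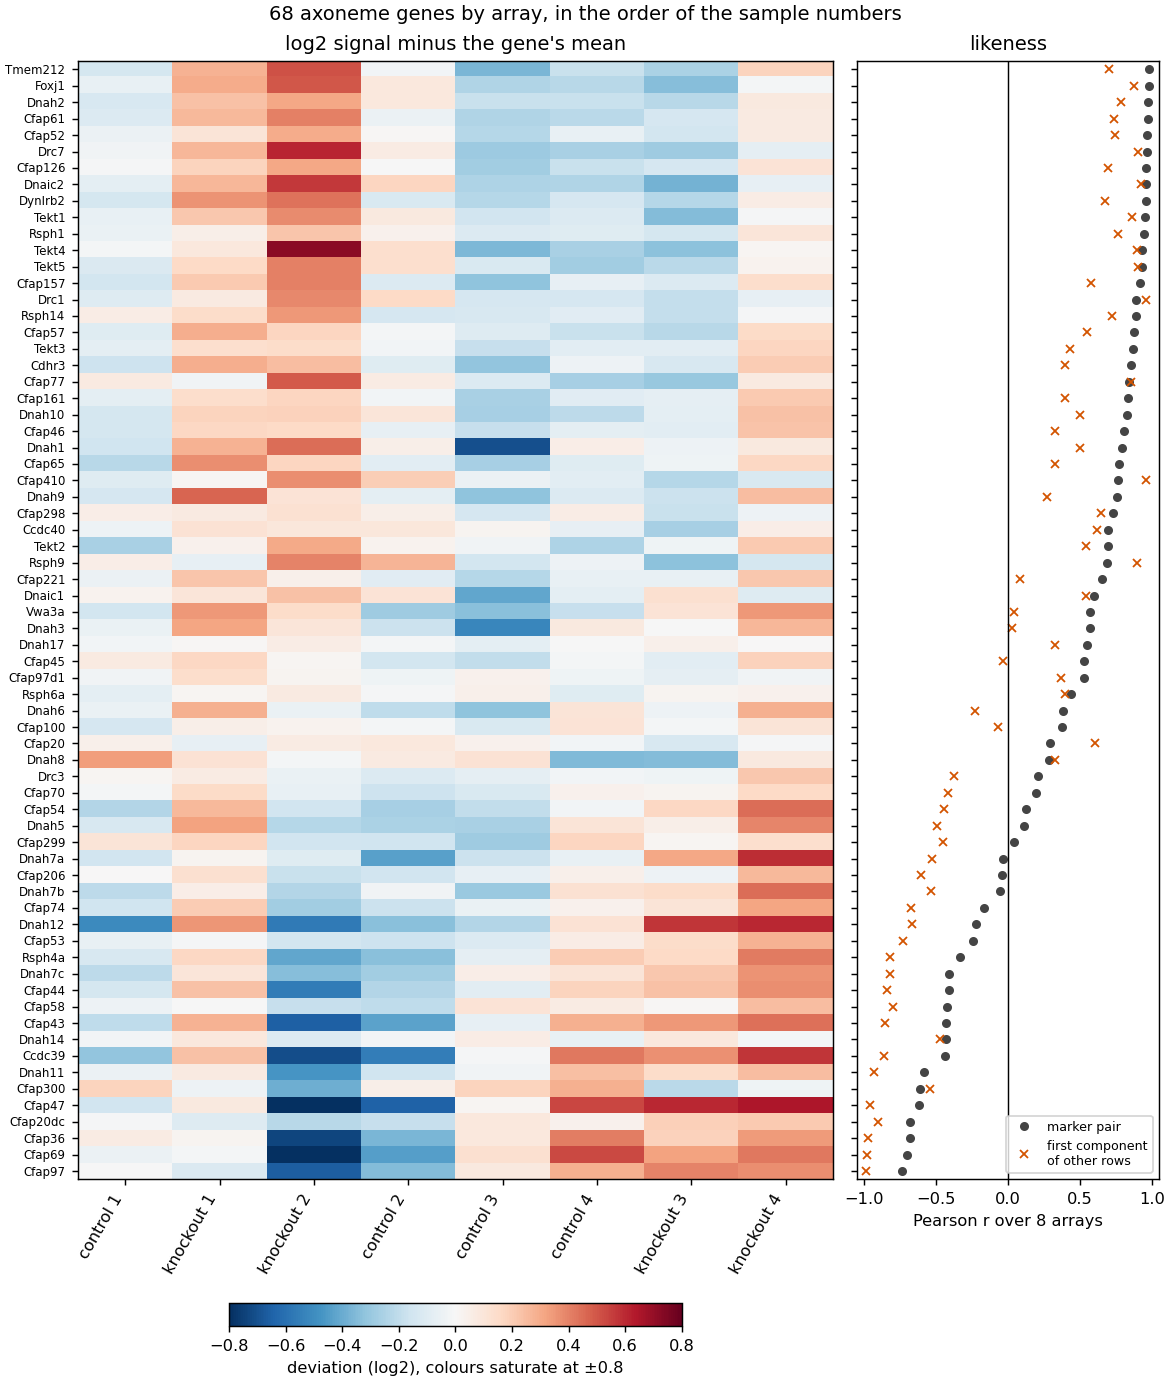
Left, log2 signal of each of the 68 genes minus its mean, in the 8 arrays in the order of the sample numbers (red above, blue below). Right, Pearson's r over the 8 arrays with the mean of Foxj1 and Tmem212 (points) and with the first principal component of rows that are not axoneme genes (crosses). Genes are ordered by the points, and knockout 2 is mostly red at the top and blue at the bottom.

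The control genotypes were compared in a fit with 3 genotypes. The median over the 118 rows was 0.17 for knockout against 123Cre:Emx2(fl/+), 0.26 for knockout against Emx2(fl/fl), and 0.11 for 123Cre:Emx2(fl/+) against Emx2(fl/fl). The last contrast, between control genotypes of 2 arrays each, was above 0 in 91 of 118 rows or 46 of 68 genes (median over genes 0.06). Over all tested rows it was above 0 in 11225 of 23410 (median -0.008), so axoneme genes also leaned higher in the controls with Cre. In this contrast 2 axoneme rows had an unadjusted p under 0.05, against 2.04% of all tested rows. No axoneme row passed the adjusted threshold in any of the 3 contrasts, in which 0.179% of all tested rows passed for knockout against 123Cre:Emx2(fl/+) and 0.137% for knockout against Emx2(fl/fl). Dnah3 and Dnah1 stood higher in 123Cre:Emx2(fl/+) than in Emx2(fl/fl), by 0.36 and 0.28, while Tekt2 stood lower, by -0.26. The sample numbers 1 to 4 and 5 to 8 each held both groups equally. With that division as a term, no axoneme row passed, against 0.47% of all tested rows. The differences between knockout and control cannot change in that fit, because the division is balanced over the groups. Foxj1 differed by -0.41 between the later and the earlier samples, Ccdc39 by 0.67 and Cfap47 by 0.90, with limma adjusted p-values of 0.0828, 0.0867 and 0.0858.

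The other cilia genes were grouped by function and described in the same way, with 1 row per gene. No gene of any of these lists passed the adjusted threshold. The counts above 0 stand beside 51.6% of all tested rows. Of 24 ciliated cell proteins outside the axoneme 22 were above 0 (median 0.17), led by Cdhr4 at 0.57, Tppp3 at 0.39, Odf3b at 0.37 and Fam216b at 0.29. Cdhr4 was at 10.33, 10.54, 10.20 and 10.13 in the controls and at 11.06, 11.18, 10.45 and 10.79 in the knockouts, with knockout 3 within the control range. Of 26 proteins of the central pair and the rest of the axoneme 22 were above 0 (median 0.11), among them Spag17 at 0.43, Tctex1d4 at 0.32, Tcte1 at 0.32 and Hydin at 0.30. Of 15 genes for dynein arm assembly and docking 13 were above 0 (median 0.08), with Dnaaf3, Zmynd10, Dnaaf1 and Lrrc6 at 0.24, 0.23, 0.22 and 0.20. Regulators of multiciliation, which act upstream of Foxj1 or in the making of basal bodies, were divided: 10 of 17 were above 0 (median 0.03), with Ccdc78 at 0.25 and Deup1 at 0.16 but Gmnc at -0.30 and E2f5 at -0.15. Genes of intraflagellar transport and of the BBSome, which serve all cilia including those of OSNs, were above 0 in 8 of 29 and 4 of 11 (medians -0.05 and -0.01).

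Markers of other cells of the tissue were read in the same way, again beside 51.6% of all tested rows above 0. Of 21 genes listed for respiratory secretory and basal cells 17 were above 0 (median 0.10), with Krt15, Krt14 and Krt5 at 0.70, 0.43 and 0.43 and Muc5ac at -0.21. The olfactory epithelium has basal cells too, and in bulk tissue these keratins cannot be assigned to either epithelium. The mean over this list ranged from 10.18 to 10.40 in the controls and from 10.15 to 10.74 in the knockouts, with knockout 2 the highest. Krt5 was at 10.41, 10.81, 10.23 and 10.37 in the controls and at 11.40, 11.93, 10.01 and 10.19 in the knockouts, so that knockouts 1 and 2 were above every control and knockouts 3 and 4 below. Of 20 mature OSN genes 3 were above 0 (median -0.12), and their mean ranged from 11.15 to 11.25 in the controls and from 11.01 to 11.15 in the knockouts. At an unadjusted p under 0.05, 5 of the 20 were lower, against 3.06% of all tested rows, and 1 was higher, against 3.04%. In 5 of the 20 all knockouts lay below all controls, against 2.54% of all tested rows. Of 15 immature OSN genes 2 were above 0 (median -0.11), 4 were lower at that p and 3 had all knockouts below all controls. Skeletal muscle genes were above 0 in 11 of 11 (median 0.10) and sustentacular cell genes in 5 of 11 (median -0.00). Gland genes were above 0 in 11 of 13 (median 0.43), with a median of 0.17 against 123Cre:Emx2(fl/+) alone and 0.43 against Emx2(fl/fl) alone. Olfactory bulb and brain genes were above 0 in 2 of 14 (median -0.15), with a median of 0.01 against 123Cre:Emx2(fl/+) alone and -0.34 against Emx2(fl/fl) alone, and the control genotypes differed by a median of -0.34, with 5 of 14 genes at an unadjusted p under 0.05. Array signals have no true 0, so no marker can be called absent, and the part of these cells in the axoneme differences was not tested.

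**Figure D4:**
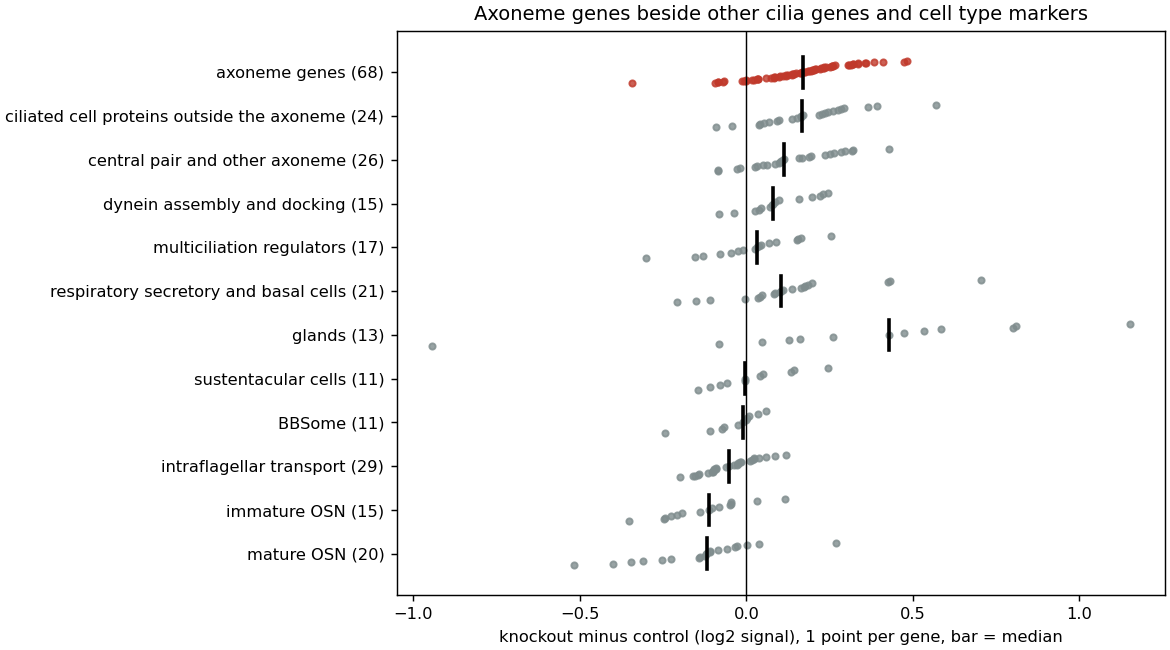
Knockout minus control in log2 signal for each gene (points, 1 row per gene) of the axoneme genes and of 11 other lists, with the median of each list (black bars) and the number of genes measured in parentheses. The axoneme genes and the ciliated cell proteins outside the axoneme share a median of 0.17, while intraflagellar transport and OSN lists have medians below 0.

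Rows with a single symbol that are not axoneme genes as chosen here were ranked by likeness to the mean of Foxj1 and Tmem212 over the 8 arrays. The closest were Odf3b (r = 0.992), Fam43b, 6820408C15Rik, Ldlrad1, Fam183b, Lhb, Nme9, Fam166c, 1700007K13Rik and Tcte1 (r = 0.980). Odf3b, Fam183b, 1700007K13Rik and Tcte1 also belong to the lists of ciliated cell and axoneme proteins above. Odf3b was at 10.16, 10.27, 9.83 and 10.002 in controls 1 to 4 and at 10.69, 10.91, 9.86 and 10.26 in knockouts 1 to 4. As with Foxj1, knockouts 1 and 2 were above every control. Its difference of 0.37 had a 95% interval of -0.12 to 0.85.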

How the data were processed

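Each sample was measured on 1 array. Per the labels, total RNA was turned into biotin-labelled cRNA. The authors deposited log2 values per transcript cluster, made with Affymetrix Expression Console (submitters' processing notes). Its version, background correction and normalization were not given in the sources used here, and values were used as deposited. Array medians lay between 8.00 and 8.13, no pair of arrays differed by a root mean square under 0.248, and the number of arrays limits the precision. Symbols came from the platform annotation and were updated by gene number. Rows with several symbols, 1621 in number, were fitted and counted among the tested rows. They were not used as axoneme genes, in the other lists or among the rows most like the marker pair.

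All 23410 rows with a symbol were fitted with limma 3.58.1 (lmFit, eBayes, two-sided) in R 4.3.3, with no covariate and with Benjamini-Hochberg adjustment over these rows. The procedure was tested on simulated data. The axoneme genes and the other lists were chosen with earlier results of these data known, so counts and medians over them are descriptions. Genes were named by rule: Emx2, the 7 members given by name, the 10 lowest p-values, the 3 largest differences of each family, up to 4 per other list and the 10 other rows most like the marker pair. Other members were named for their role or pattern after their values were seen, and so was Omp. Promoters were RefSeq's (GRCm38.p6), and 10 of the 68 genes had no window: Foxj1, Cfap53, Cfap54, Cfap65, Cfap97, Cfap157, Cfap299, Dnah3, Rsph1 and Rsph4a.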

Additional observations from a re-analysis of the deposited data

Results flagged for a closer look

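In groups of 4 arrays, 1 array was set against the other 3 for each named gene: the gap to its nearest neighbour, divided by the range of the group, was compared with Dixon's critical value at 95%. Of 56 groups tested 2 exceeded it, and chance flags about 1 in 20 groups. Drc1 in the controls had a ratio of 0.887, because control 2 was at 8.20 and the other controls lay between 7.91 and 7.94. Ccdc40 in the knockouts had a ratio of 0.837, because knockout 3 was at 9.14 and the other knockouts lay between 9.46 and 9.52.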

How the results depend on the processing

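With arrays centred on 20 mature OSN genes, the median of all tested rows shifted by 0.14, 1 axoneme row passed (Vwa3a; 0.312% of all tested rows, 0.0726% as higher), the median over the 118 rows was 0.36, which is 0.22 above that shift, and 55 rows had all knockouts above all controls (46.6%, against 12.2% of all tested rows). With array weights 4 rows passed, those of Vwa3a (0.53), Cfap54 in both of its rows (0.49 each) and Dnah3 (1 row, 0.44), against 0.957% of all tested rows, 0.222% as higher. With the first principal component as a term, chosen after the data had been seen, 2 rows passed, against 1.17% of all tested rows. Against 123Cre:Emx2(fl/+) alone 10 rows had no overlap with higher knockouts (8.47%, all rows 6.42%), and against Emx2(fl/fl) alone 41 (34.7%, all rows 7.79%). When each array was left out in turn, that count ran from 4 to 30 (3.39% to 25.4%, all rows 2.61% to 4.75%). The median ran from 0.18 to 0.28. The number of axoneme rows that passed stayed at 0, against 0.196% to 0.564% of all tested rows, so a count of 0 is near the background. The count of rows at an unadjusted p under 0.05 ran from 5 (against 123Cre:Emx2(fl/+) alone; all rows 3.54%) to 78 (array weights, all rows 14.7%, and mature OSN centring, all rows 19%). Of 28 named genes under 20 alternatives, 547 of 560 values kept their sign and their side of the threshold, 5 passed and 8 changed sign. In part of the alternatives, such as the methods' t-test and the sample number term, the difference itself cannot change. The sign changes were those of Drc1, at -0.0095 without knockout 2, and of Ccdc40, which was at 0.011 with quantile normalization, 0.14 with mature OSN centring, 0.022 with median centring, 0.054 against 123Cre:Emx2(fl/+) alone, 0.028 without control 2, 0.0066 without control 3 and 0.087 without knockout 3. With single arrays left out Ccdc40 ran from -0.040 to 0.087, and it was at -0.056 against Emx2(fl/fl) alone. The causes were not tested. No paired analysis was possible because the replicate numbers were given in accession order and only name samples. With 4 arrays a group, differences of the size seen here mostly have intervals that include 0.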
